A study of Homo sapiens with 9 samples.

Results

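Genes were collected for which the NC group lay between the SM2 and SM4 groups of OVCAR5 cells. OVCAR5 is an established human ovarian cancer cell line with epithelial character. All 9 libraries came from cells stably infected with a lentivirus and kept under puromycin until resistant cells remained. The labels give 3 libraries as control (NC) and 3 each as METTL3 knockdown under the names SM2 and SM4. METTL3 is the catalytic subunit of the complex that writes N6-methyladenosine (m6A) on RNA. The labels do not say which hairpin stands behind SM2 or SM4, and they call the control parental although the paper's methods used a control hairpin. Nothing says that the libraries of a group came from separate cultures or clones, so their spread may be technical. A source field names OVCAR6, OVCAR7 and OVCAR8 for the SM4 libraries, although OVCAR5 is the cell line entered for every library. METTL3 itself went against the labels. It stood at 36.0, 34.0 and 36.7 CPM (counts scaled to a fixed library total) in the NC libraries, at 36.8, 39.8 and 40.3 CPM in the SM2 libraries and at 61.2, 57.1 and 63.1 CPM in the SM4 libraries. METTL3 was higher in SM4 than in NC (edgeR log2 ratio 0.75, adjusted p = 2.21e-09) and did not pass the test in SM2 (log2 ratio 0.12, adjusted p = 0.120). It was also higher in SM4 than in SM2 (log2 ratio 0.63, adjusted p = 7.45e-08), so the libraries labelled SM4 held the most METTL3 RNA and those labelled NC and SM2 the least. By this gene the labels of SM4 and NC may have been exchanged, in which case SM4 would be the control and NC a knockdown. The paper's list of top genes gives ratios of each METTL3 hairpin over a control hairpin. For METTL3, and for genes chosen below such as CST6, NOG and MSRB3, these ratios lie close to NC over SM4 and SM2 over SM4 here. They would do so if SM4 were the control. The groups are kept as labelled, and every ratio over NC given below is a ratio over the libraries labelled NC, which may not be the control. If SM4 is the control, the genes chosen below differ from it in the same direction in NC and SM2, and further in SM2.

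A gene was chosen by its values in all 9 libraries. It needed a mean of at least 1 CPM, no overlap between the 3 groups, and a difference of at least 15% between the NC mean and the mean on each side (the larger mean over the smaller). Of 60649 genes in the count table, 14432 reached 1 CPM and 76 met the rule. SM2 lay above NC and SM4 below it for 46 genes (0.319% of the genes at 1 CPM), and SM2 lay below and SM4 above for 30 genes (0.208%). Without the fold, 159 genes (1.10%) and 145 genes (1.00%) had these orders. Since the rule used every library and all comparisons between the groups, the differences of the 76 genes are a description and carry no test here.

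Without the 15% step, each of the 4 other orders was more common among the same 14432 genes. Libraries did not overlap and NC lay in the middle for 304 genes, against 634 genes with SM2 in the middle and 717 with SM4 in the middle. With the 15% step on each side the numbers were 76, 226 and 209, and NC above SM4 above SM2 then held 46 genes, as many as SM2 above NC above SM4. These counts share the same 3 NC libraries and are given without a test.

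**Figure D1:**
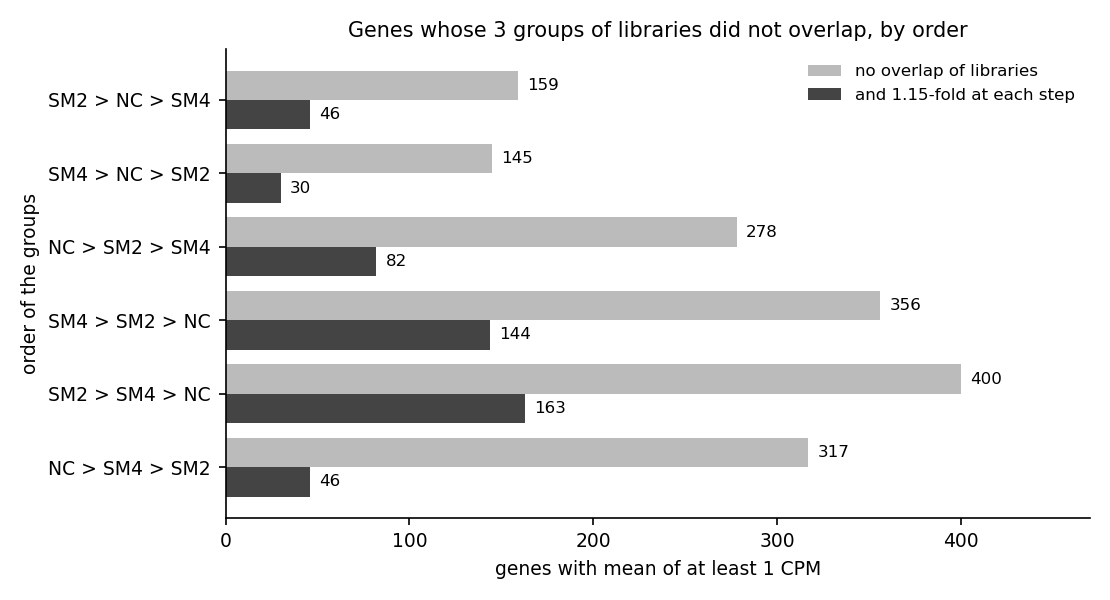
Number of genes (x axis) with a mean of at least 1 CPM whose 3 groups of 3 libraries did not overlap, for each of the 6 possible orders of the group levels (y axis). Grey bars ask for no overlap alone and dark bars also for a 15% difference at each step. The orders with NC in the middle hold 159 and 145 genes, fewer than any other order.

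Depth was similar among the libraries, from 44103272 to 63693728 counts, so that 1 CPM stood for 44.1 to 63.7 counts. SM2 replicate 3 stood apart from its group. A chi-square of its counts against the other SM2 libraries gave 16.7 and 13.8 per degree of freedom, while the 7 other replicate pairs gave 4.21 to 6.04. All 7 epithelial marker genes were above 1 CPM, led by KRT8 at 5416 CPM, while 1 of 7 fibroblast, 2 of 6 leukocyte and 1 of 5 endothelial markers reached 1 CPM. The summed leukocyte markers, most of which was LYZ at 40.4 CPM, ran from 40.5 to 45.2 CPM in NC, 58.6 to 63.3 in SM2 and 41.6 to 44.2 in SM4. The endothelial sum, mostly PECAM1 at 9.14 CPM, ran from 5.45 to 5.82 CPM in NC, 7.85 to 9.05 in SM2 and 13.2 to 15.4 in SM4, with KDR at 0. The part of other cell types in the levels given below was not tested.

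Ovarian cancer cells of this kind secrete chemokines and growth factors, make their own sterols, and express a constant low level of interferon-stimulated genes. CXC chemokines with the ELR motif recruit neutrophils through the receptors CXCR1 and CXCR2 and lie side by side on chromosome 4. Genes of cholesterol synthesis share the transcription factor SREBP2, which is released when sterol levels in the endoplasmic reticulum fall. Genes of the oligoadenylate synthetase family sense double-stranded RNA and are induced by type I interferon. Of the 76 genes, 20 (26.3%) were on 14 of the 39 gene lists that were used, against 975 (6.76%) of all 14432 genes, but the lists were chosen with earlier results of these data known and nothing is read from the difference. No list held more than 3 of the 76 genes.

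The genes higher in SM2 and lower in SM4 changed by a median of 0.38 in SM2 and 0.36 in SM4 (absolute log2 ratio of mean CPM over NC). SM2 and SM4 differed by at least 2-fold for 20 of the 46, and by 9.02-fold at most. The genes of the reverse order were changed less, by a median of 0.28 in SM2 and 0.31 in SM4, with 2 of 30 differing by at least 2-fold and 3.81-fold at most. Next to the threshold lay RILPL2 and BIK just inside (smaller of both folds 1.153 and 1.157) and ATF5 and SCD5 just outside (1.148 and 1.149) in the first direction. RAB15 and FGD3 (1.152 and 1.153) were just inside and PMVK and CTSD (1.145 and 1.149) just outside in the second.

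**Figure D2:**
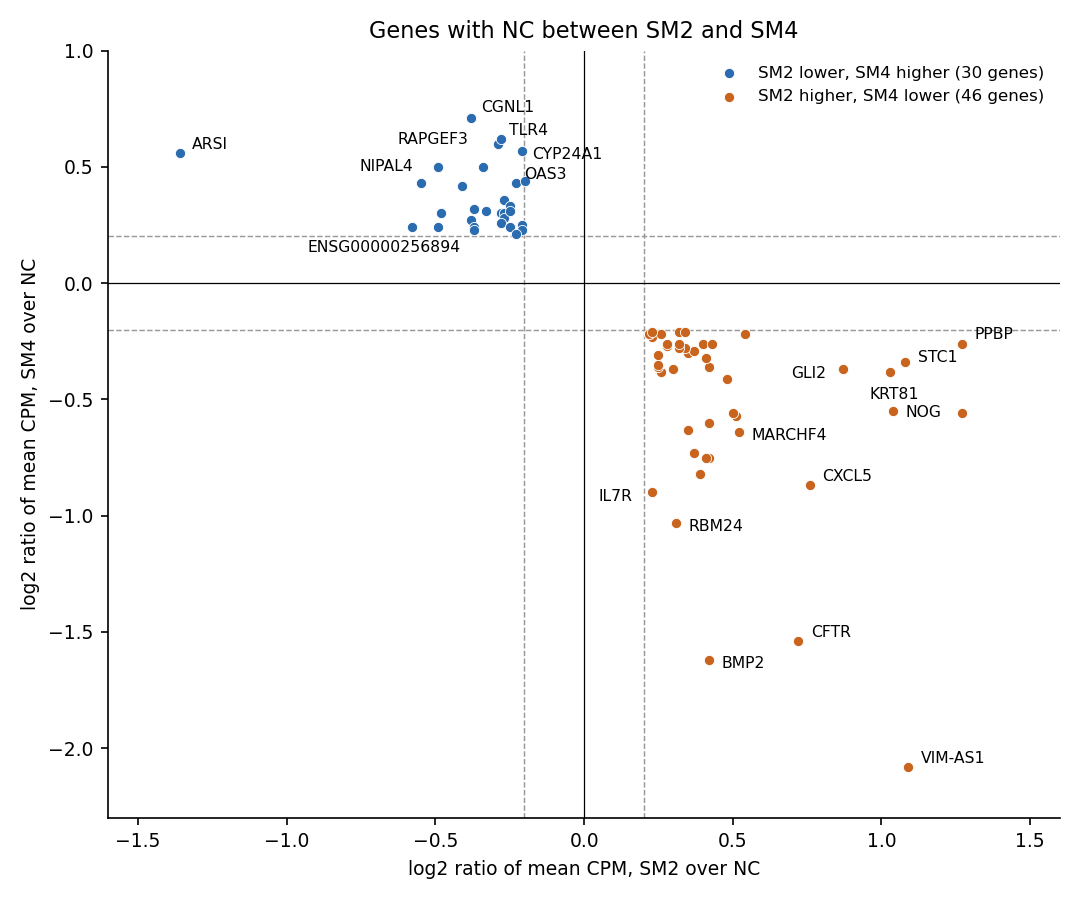
Log2 ratio of mean CPM over NC in SM2 (x axis) and SM4 (y axis) for the 76 genes, each point 1 gene with 3 libraries per group. Dashed lines mark a 15% difference. VIM-AS1, BMP2 and CFTR lie farthest down among the 46 genes on the lower right, and ARSI farthest left among the 30 on the upper left.

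For comparison, an edgeR quasi-likelihood test over all 19674 genes tested called 22.3% of genes in SM2 against NC and 21.2% in SM4 against NC (Benjamini-Hochberg adjusted p below 0.05, either direction). Of the 46 genes higher in SM2 and lower in SM4, it called 32 in SM2, 33 in SM4, 27 in both and 8 in neither. Of the 30 in the reverse order it called 22, 18, 15 and 5. Because the rule selected on these contrasts, nothing is read from these shares.

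The chemokines CXCL5 and PPBP were among the genes higher in SM2 and lower in SM4. CXCL5 attracts neutrophils, and PPBP encodes the precursor of CXCL7, which is best known from platelets. CXCL5 was at 51.5, 48.7 and 51.4 CPM in NC, 90.3, 79.4 and 86.5 CPM in SM2, and 28.8, 28 and 26.2 CPM in SM4. PPBP was at 49.0, 45.8 and 47.8 CPM in NC, 112, 107 and 125 CPM in SM2, and 39.4, 41.0 and 38.8 CPM in SM4. CXCL5 was thus 1.69-fold above NC in SM2 and 1.83-fold below it in SM4, while PPBP was changed mainly in SM2, by 2.41-fold, with 1.20-fold in SM4. The genes lie in the same orientation on the minus strand of chromosome 4, 7452 bases apart. PF4, which lies on the other side of PPBP and is likewise known from platelets, had at most 2 counts in a library.

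The other 5 genes of the ELR family did not share this order. All 5 (CXCL1, CXCL2, CXCL3, CXCL6 and CXCL8) fell in SM4, and in SM2 CXCL1, CXCL6 and CXCL8 fell and none rose. Among all 14356 other genes of at least 1 CPM, 2105 rose and 1934 fell in SM2, and 1934 rose and 1908 fell in SM4. CXCL8, the neutrophil attractant interleukin-8, was at 193, 191 and 178 CPM in NC, 113, 110 and 126 CPM in SM2 and 82.5, 87.1 and 78.0 CPM in SM4. It fell in SM2 by 0.70 (SE 0.0561, adjusted p = 1.47e-08) and in SM4 by 1.20 (SE 0.0567, adjusted p = 4.15e-12) on edgeR's log2 scale. CXCL3, the nearest family member on the other side of CXCL5, was at 185 CPM in NC, 181 in SM2 and 88.6 in SM4, which gave a log2 ratio of -0.04 in SM2 (adjusted p = 0.592) and -1.08 in SM4 (adjusted p = 5.62e-13). In the direct test of SM4 against SM2, which called 12.8% of all genes, all 5 were lower in SM4.

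**Figure D3:**
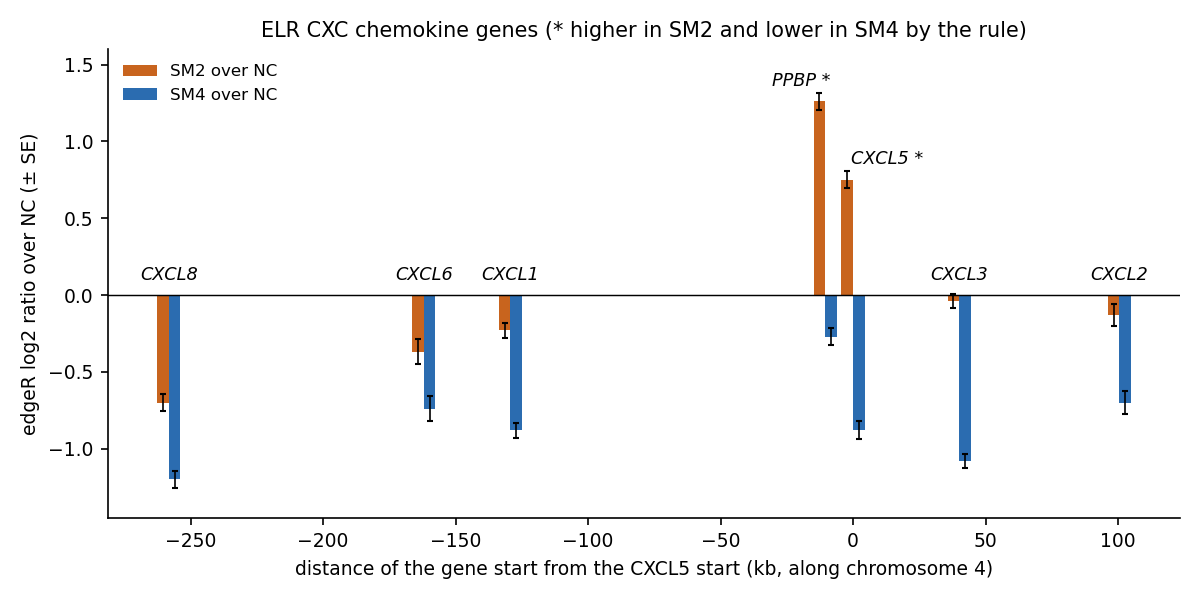
EdgeR log2 ratio over NC (y axis, bars with standard error, 3 libraries per group) of the 7 ELR CXC chemokine genes at the distance of their start from that of CXCL5 (x axis, kb). Stars mark the genes chosen by the rule. PPBP and CXCL5 are the genes with bars above 0 in SM2, and all 7 lie below 0 in SM4.

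Promoter sequences differed within this gene family. The 250 bases before the start of CXCL5 (chr4:73998678-73998927, minus strand) and PPBP (chr4:73988191-73988440, minus strand) are shown because the genes are neighbours with the same order of levels. They come from RefSeq with build GRCh38.p14 and are written 5' to 3' up to the base before the start, with letters that match the kappaB motif GGANTTTCC on either strand in capitals.
CXCL5: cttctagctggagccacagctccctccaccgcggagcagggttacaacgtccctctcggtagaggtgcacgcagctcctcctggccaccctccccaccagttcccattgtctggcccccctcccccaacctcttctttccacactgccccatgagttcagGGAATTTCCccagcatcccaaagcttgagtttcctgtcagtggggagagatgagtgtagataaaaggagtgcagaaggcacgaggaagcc
PPBP: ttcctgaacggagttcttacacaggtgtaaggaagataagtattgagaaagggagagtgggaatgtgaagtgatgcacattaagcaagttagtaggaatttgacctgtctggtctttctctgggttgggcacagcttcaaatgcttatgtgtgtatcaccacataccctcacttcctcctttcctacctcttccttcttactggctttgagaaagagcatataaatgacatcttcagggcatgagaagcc
CXCL5 held the motif at -90 to -82 from the start, and PPBP did not hold it in this window. The other 5 chemokine promoters each held the same 9 letters once, CXCL1 at -78 to -70, CXCL2 at -77 to -69, CXCL3 at -78 to -70, CXCL6 at -89 to -81 and CXCL8 at -91 to -83. CXCL5 and the 5 genes that fell in SM4 therefore had these letters in common, while PPBP shared the order of levels with CXCL5 without them. A promoter was found for 48 of the 76 genes and for 10391 of all 14432. Of all these promoters, 1.5% held the motif, as did 3 of the 28 found for genes higher in SM2 and lower in SM4 (CXCL5, MSRB3 and RILPL2) and 1 of the 20 found for the reverse order (OAS3). This was 1 of 11 motifs scanned, and others had counts of a like size. TGATGNAA (ATF4) was in 2 of the 28 and none of the 20, against 1.29% of all promoters, TTCNNNGAA (STAT) in 3 and none, against 5.45%, and TGACGTCA (CRE) in 2 and none, against 2.92%. GGAATG (TEAD) was in 1 of the 28 and 5 of the 20, against 9.4%, and TGANTCA (AP-1) in none of either, against 3.87%. CACGTG (E-box) and TTGCNNAA (C/EBP) were each in 2 of the 28 and 1 of the 20, against 8.9% and 5.84%, TCACNCCAC (sterol response) in none and 1, against 0.847%, and GGGCGG (GC box) in 17 and 15, against 67.8%. A match of letters is not evidence of binding.

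Of the 25 measured genes of the cholesterol synthesis list, 2 were higher in SM2 and lower in SM4. One of these, CYP51A1, the lanosterol demethylase of cholesterol synthesis, was at 9.61, 10.1 and 11.2 CPM in NC, 13.1, 11.7 and 11.3 CPM in SM2 and 9.22, 8.02 and 9.32 CPM in SM4. Here the highest NC library at 11.2 CPM lay close to the lowest SM2 library at 11.3 CPM, and AKAP9, at a mean of 56.0 CPM, overlaps the gene on the other strand, so its small difference is uncertain.

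The 23 genes of the cholesterol synthesis list that the rule did not choose rose mostly in SM2 alone at the adjusted threshold. In SM2, 20 of 23 rose and PMVK fell, whereas in SM4 TM7SF2 and SREBF2 rose and none fell. INSIG1, which holds the SREBP complex back in the endoplasmic reticulum, was at 48.9, 48.2 and 46.4 CPM in NC, 88.7, 81.9 and 89.4 CPM in SM2 and 49.4, 52.4 and 48.8 CPM in SM4. It rose in SM2 (log2 ratio 0.85, SE 0.0528, adjusted p = 4.02e-10) and did not pass the test in SM4 (log2 ratio 0.06, adjusted p = 0.527). In SM4 against SM2, 20 of the 23 were lower and PMVK was higher. The median log2 ratio of the 23 was 0.36 in SM2 and -0.00 in SM4, and over all other genes of at least 1 CPM it was -0.01 in both.

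**Figure D4:**
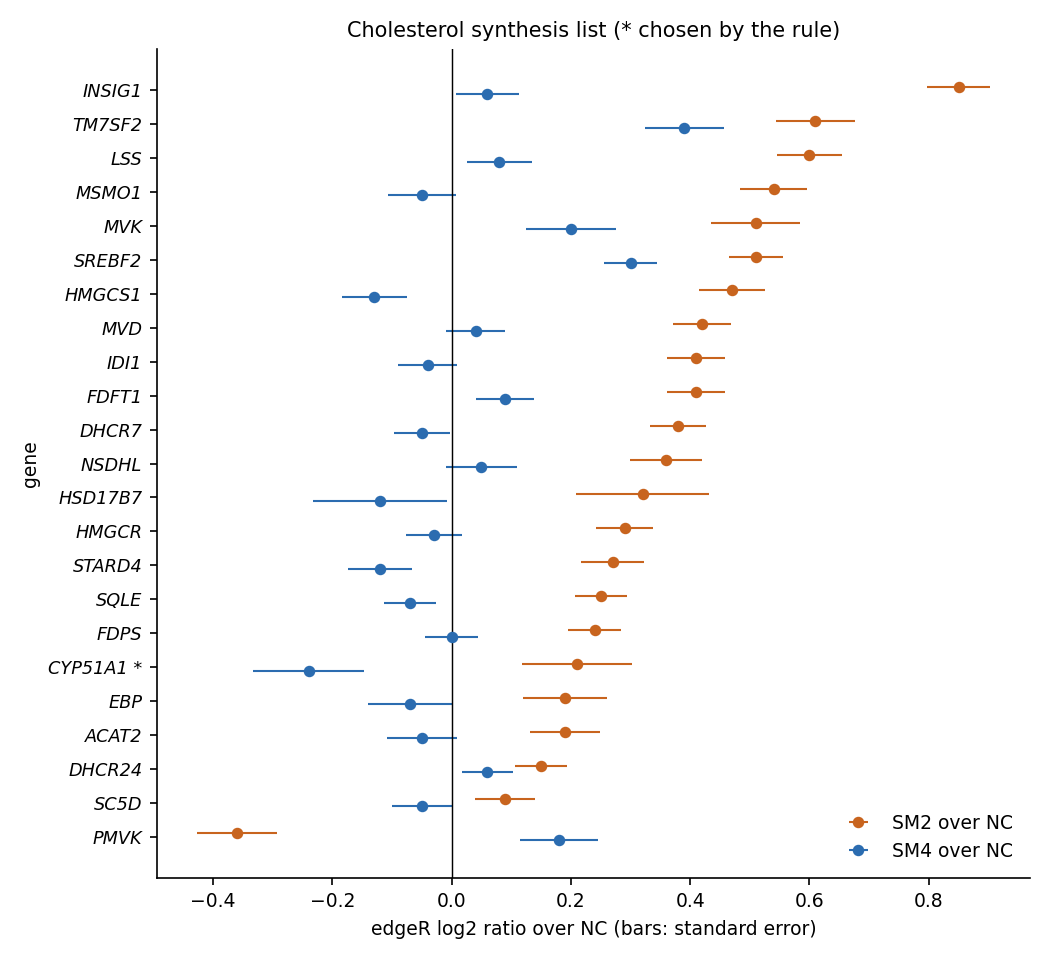
EdgeR log2 ratio over NC (x axis, bars are standard errors, 3 libraries per group) of genes of the cholesterol synthesis list (y axis), in SM2 and SM4. CYP51A1, starred, was chosen by the rule. INSIG1 lies farthest right in SM2, most genes lie near 0 in SM4, and PMVK is on the left in SM2.

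The list for fatty acid synthesis and desaturation held none of the 76 genes, and of its 26 genes 11 rose and 1 fell in SM2, and 7 rose and 6 fell in SM4. Single genes of lipid handling outside these lists were higher in SM2 and lower in SM4. AGPAT3, an acyltransferase of phospholipid synthesis, was at 121, 126 and 123 CPM in NC, 146, 150 and 135 CPM in SM2 and 107, 108 and 104 CPM in SM4. ACOT1, an acyl-CoA thioesterase, averaged 4.86 CPM in NC, 6.07 in SM2 and 4.06 in SM4, and ACBD7, an acyl-CoA binding protein, averaged 9.73, 11.6 and 8.36 CPM. ACOT1 is nearly identical to ACOT2, so reads may have been split between these genes. CAV1, which forms the membrane invaginations called caveolae, was the most abundant gene in this direction, at 330, 328 and 311 CPM in NC, 427, 392 and 391 CPM in SM2 and 262, 274 and 261 CPM in SM4. Its neighbour and partner CAV2 rose in SM2 from 172 to 209 CPM (adjusted p = 0.000108) and was at 165 CPM in SM4 (adjusted p = 0.307).

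BMP2 and its antagonist NOG (noggin) were both higher in SM2 and lower in SM4. BMP2, a ligand of the bone morphogenetic protein receptors, was at 3.47, 3.51 and 3.86 CPM in NC, 4.13, 5.32 and 5.04 CPM in SM2 and 1.28, 0.895 and 1.36 CPM in SM4. NOG, which binds BMP ligands outside the cell, was at 2.24, 2.09 and 2.07 CPM in NC, 3.72, 4.39 and 5.05 CPM in SM2 and 1.74, 1.22 and 1.40 CPM in SM4. BMP2 differed mainly in SM4, by 3.07-fold, and NOG mainly in SM2, by 2.05-fold, both at low levels. Of the 39 other genes of the TGF-beta and BMP list, 9 rose and 9 fell in SM2, and 8 rose and 9 fell in SM4. ID1, a common BMP target, was at 395 CPM in NC, 351 in SM2 and 394 in SM4, so that it fell in SM2 (log2 ratio -0.18, adjusted p = 0.00759) and had a log2 ratio of -0.02 in SM4 (adjusted p = 0.867). BMP4, at 33.1 CPM in NC, 35.4 in SM2 and 36.7 in SM4, did not pass the test in either.

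Other secreted proteins with this order were SAA1, STC1, EDN1, LGALS1 and COL22A1. SAA1, an acute-phase protein, was at 79.1, 71.7 and 74.5 CPM in NC, 93.7, 88.5 and 105 CPM in SM2 and 44.5, 47.0 and 54.2 CPM in SM4. Its paralog SAA2, with which it may share reads, rose in SM2 (41.7 CPM in NC, 56.7 in SM2, adjusted p = 4.7e-06) and was at 38.2 CPM in SM4 (adjusted p = 0.0732). STC1, the hormone stanniocalcin-1, was at 2.13, 2.04 and 2.27 CPM in NC, 4.35, 5.24 and 4.05 CPM in SM2 and 1.81, 1.27 and 2.01 CPM in SM4, so that its difference was mostly in SM2. LGALS1, the sugar-binding protein galectin-1, was at 165, 176 and 172 CPM in NC, 189, 195 and 236 CPM in SM2 and 139, 145 and 143 CPM in SM4, with SM2 replicate 3 as the highest library. COL22A1, a collagen of tissue junctions, was at 2.68, 2.13 and 2.39 CPM in NC, 3.43, 3.41 and 3.33 CPM in SM2 and 1.79, 1.48 and 1.62 CPM in SM4. EDN1 (endothelin-1) averaged 9.33 CPM in NC, 11.7 in SM2 and 8.05 in SM4.

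Membrane proteins with this order included the chloride channel CFTR and several receptors. CFTR, the channel mutated in cystic fibrosis, was at 3.17, 3.11 and 3.78 CPM in NC, 5.69, 5.32 and 5.61 CPM in SM2 and 0.980, 1.29 and 1.18 CPM in SM4. It differed by 1.65-fold in SM2 and 2.92-fold in SM4, with little spread among the libraries of a group. Of the 27 other genes of the ion transport list, 7 rose and 1 fell in SM2, and 8 rose and 1 fell in SM4. IL7R, the interleukin-7 receptor, was changed mainly in SM4, at 5.26, 5.51 and 5.13 CPM in NC, 5.96, 6.72 and 5.93 CPM in SM2 and 2.46, 3.47 and 2.58 CPM in SM4. ADRB1, the beta-1 adrenergic receptor, was near the level limit of the rule at 1.20, 1.47 and 1.16 CPM in NC, 2.15, 1.73 and 1.60 CPM in SM2 and 0.964, 1.07 and 0.552 CPM in SM4. HTR1D, a serotonin receptor, averaged 3.10 CPM in NC, 4.16 in SM2 and 2.42 in SM4. PMP22, a myelin protein also found in epithelia, averaged 4.04, 5.31 and 2.30 CPM, but 1 SM2 library at 4.16 CPM lay close to the highest NC library at 4.10 CPM.

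Transcription factors higher in SM2 and lower in SM4 included GLI2, CEBPD, HES7 and PLAGL1. GLI2, an effector of Hedgehog signalling, was at 3.06, 2.91 and 2.91 CPM in NC, 6.09, 5.05 and 5.13 CPM in SM2 and 1.83, 2.39 and 2.64 CPM in SM4. CEBPD, a factor of the acute-phase response, was at 53.5, 56.2 and 58.5 CPM in NC, 61.4, 65.9 and 72.7 CPM in SM2 and 42.4, 46.3 and 46.9 CPM in SM4. Its relative CEBPB was at 144 CPM in NC, 143 in SM2 and 140 in SM4 and did not pass the test in either comparison (adjusted p = 0.834 and 0.513). HES7, a repressor of the Notch pathway, averaged 1.21 CPM in NC, 1.57 in SM2 and 0.729 in SM4, and PLAGL1, an imprinted zinc finger factor, 14.8, 17.6 and 11.5 CPM. RBM24, an RNA-binding splicing regulator, averaged 2.10, 2.60 and 1.03 CPM.

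Enzymes that build sugar chains appeared in both directions. ST6GAL1, which caps N-glycans with sialic acid, was at 12.9, 11.3 and 12.7 CPM in NC, 16.7, 16.5 and 16.0 CPM in SM2 and 7.68, 7.99 and 8.71 CPM in SM4. GCNT3, which branches the O-glycans of mucins, was at 160, 159 and 170 CPM in NC, 205, 203 and 211 CPM in SM2 and 133, 133 and 137 CPM in SM4. EXT1, a polymerase of heparan sulfate, was at 162, 151 and 159 CPM in NC, 216, 214 and 199 CPM in SM2 and 124, 129 and 126 CPM in SM4. For all of these the 3 groups were well separated. B4GALNT3, which adds N-acetylgalactosamine to glycans, had the reverse order with 9.55, 8.45 and 8.87 CPM in NC, 6.24, 7.05 and 7.51 CPM in SM2 and 9.67, 10.5 and 11.4 CPM in SM4. Its lowest SM4 library at 9.67 CPM lay close to its highest NC library at 9.55 CPM. Of the 39 other genes of the mucin and glycan enzyme list, 11 rose and 9 fell in SM2, and 9 rose and 13 fell in SM4. GALNT5, which starts O-glycans, rose in SM2 (log2 ratio 0.19, adjusted p = 0.0123) and fell in SM4 (log2 ratio -0.18, adjusted p = 0.0238) without reaching the fold of the rule.

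VIM-AS1 had the largest difference between SM2 and SM4 of the 76 genes. It is a non-coding RNA transcribed across the start of VIM from the other strand. VIM-AS1 was at 1.11, 1.55 and 1.20 CPM in NC, 2.13, 3.06 and 3.04 CPM in SM2 and 0.282, 0.314 and 0.315 CPM in SM4, with as few as 16 counts in a library. VIM, which encodes the mesenchymal filament protein vimentin, was at 6.26, 5.67 and 4.72 CPM in NC, 42.3, 41.6 and 45.3 CPM in SM2 and 14.9, 15.2 and 12.4 CPM in SM4. VIM rose in both comparisons, by a log2 ratio of 2.96 in SM2 (SE 0.0964, adjusted p = 6.08e-14) and 1.35 in SM4 (SE 0.0990, adjusted p = 3.03e-09). Between SM4 and NC, sense and antisense RNA thus differed in opposite directions, while in SM2 both lay above NC and SM4. Whether strand was used in counting is not given in the sources used here, and reads of VIM and VIM-AS1 may then have been mixed where the genes overlap.

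The other genes of this direction were smaller in effect or less well known. KRT81, a hair keratin, was at 7.12, 9.29 and 8.12 CPM in NC, 16.4, 15.8 and 18 CPM in SM2 and 6.75, 6.15 and 6.01 CPM in SM4. MSRB3, a methionine sulfoxide reductase, was at 6.92, 6.07 and 6.97 CPM in NC, 7.78, 8.84 and 10.0 CPM in SM2 and 4.05, 4.10 and 3.74 CPM in SM4. MARCHF4, a ubiquitin ligase, was at 1.56, 1.89 and 1.11 CPM in NC, 2.02, 2.62 and 1.92 CPM in SM2 and 1.05, 1.02 and 0.867 CPM in SM4. The NC libraries of MARCHF4 spanned nearly the whole gap between the other groups, whereas those of TP53INP2 lay within a narrow range. TP53INP2, a regulator of autophagy, was at 7.10, 7.16 and 7.18 CPM in NC, 10.1, 9.65 and 10.1 CPM in SM2 and 5.57, 5.02 and 5.52 CPM in SM4, and NCOA6 overlaps it on the other strand at a mean of 96.0 CPM. BIK, a pro-apoptotic member of the BCL2 family, was at 41.7, 42.6 and 43.5 CPM in NC, 49.6, 48.3 and 52.3 CPM in SM2 and 35.6, 37.7 and 37.2 CPM in SM4. Of the 13 other genes of that family that were measured, 2 rose and 1 fell in SM2, and 1 rose and 3 fell in SM4. WIPI1, another autophagy gene, averaged 9.97 CPM in NC, 11.8 in SM2 and 7.81 in SM4, and C15orf48, a small mitochondrial protein induced in inflammation, 13.7, 18.3 and 8.15 CPM. PIK3AP1, an adaptor of phosphoinositide 3-kinase, averaged 103, 121 and 88.0 CPM, EMC10, a subunit of the membrane protein insertase of the endoplasmic reticulum, 84.7, 109 and 69.2 CPM, and FBXL16, an F-box protein, 72.8, 98.1 and 60.9 CPM. The remaining genes included IKBIP, SHLD1, RGL1, RILPL2 and the non-coding RNAs CASC8 and ENSG00000279227.

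Antiviral and innate immune genes stood among those lower in SM2 and higher in SM4. OAS3, which makes the oligoadenylates that activate RNase L, was at 250, 233 and 246 CPM in NC, 215, 214 and 191 CPM in SM2 and 325, 335 and 326 CPM in SM4. OASL, a relative without that enzyme activity, was at 6.44, 7.36 and 6.65 CPM in NC, 6.32, 5.47 and 5.45 CPM in SM2 and 7.91, 8.89 and 8.53 CPM in SM4. OAS3 was 1.35-fold above NC in SM4 and its mean in SM2 was 0.851 of that in NC, while 1 SM2 library of OASL lay just under the lowest NC library. TLR4, the receptor for bacterial lipopolysaccharide, was at 6.53, 5.73 and 5.86 CPM in NC, 5.39, 4.26 and 5.32 CPM in SM2 and 8.86, 9.14 and 9.95 CPM in SM4. FAM111A, a protease that restricts some viruses, was at 216, 196 and 210 CPM in NC, 175, 178 and 184 CPM in SM2 and 258, 234 and 249 CPM in SM4. Its neighbour FAM111B fell in SM2 from 98.8 to 90.4 CPM (adjusted p = 0.0484), a call lost under 10 of 15 alternatives, and rose to 117 CPM in SM4 (adjusted p = 0.00175). LAPTM5, a lysosomal protein typical of blood cells, was at 5.85, 4.95 and 5.90 CPM in NC, 4.06, 3.79 and 4.12 CPM in SM2 and 6.86, 6.14 and 7.53 CPM in SM4.

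The other 55 genes of the type I interferon list rose more often than they fell in both comparisons with the libraries labelled NC. If SM4 is the control, a rise in SM4 given here is a fall in NC. In SM2, 21 rose and none fell at the adjusted threshold, and in SM4, 46 rose and 1, USP18, fell, a call lost under 3 of 15 alternatives. The genes on either side of OAS3 on chromosome 12 did not fall in SM2. OAS1 was at 33.8, 33.3 and 37.2 CPM in NC, 36.6, 33.7 and 35.2 CPM in SM2 and 53.8, 56.5 and 54.8 CPM in SM4, with a log2 ratio of 0.01 in SM2 (adjusted p = 0.952) and 0.65 in SM4 (adjusted p = 3.55e-08). OAS2 was at 3.09 CPM in NC, 3.49 in SM2 and 7.12 in SM4, with a log2 ratio of 0.17 in SM2 (adjusted p = 0.448) and 1.20 in SM4 (adjusted p = 1.6e-06). SM4 thus lay above NC for all 3 neighbours, while of the 3 only OAS3 lay below NC in every SM2 library. The direct test of SM4 against SM2 called 32 of the 55 higher and 4 lower.

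The promoter of OAS3 is shown because this gene was in the list with the most genes higher in SM4. It spans the 250 bases before the start (chr12:112938224-112938473, plus strand, GRCh38.p14, from RefSeq), with letters that match the interferon response motif TTTCNNTTT on either strand in capitals.
OAS3: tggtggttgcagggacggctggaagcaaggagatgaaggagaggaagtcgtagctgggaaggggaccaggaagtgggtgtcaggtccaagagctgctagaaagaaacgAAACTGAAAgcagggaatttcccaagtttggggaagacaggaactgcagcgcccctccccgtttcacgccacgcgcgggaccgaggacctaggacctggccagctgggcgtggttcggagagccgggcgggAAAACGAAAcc
Matches lay at -142 to -134 and at -11 to -3 from the start. The motif was found in 6.02% of all promoters, in 2 of 28 promoters of genes higher in SM2 and lower in SM4 (ACBD7 and EDN1) and in 1 of 20 of the reverse order (OAS3). OAS3 also held the kappaB letters at -129 to -121, which do not overlap the capitals.

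Several genes lower in SM2 and higher in SM4 encode enzymes or transporters, a grouping made here from the chosen genes. The list of amino acid, sugar and lipid carriers held none of them, and of its 50 genes 16 rose and 12 fell in SM2, and 13 rose and 12 fell in SM4. CYP24A1, which breaks down active vitamin D, was at 43.3, 41.5 and 43.0 CPM in NC, 37.3, 37.2 and 36.2 CPM in SM2 and 64.6, 61.5 and 63.7 CPM in SM4. SLC7A11, the cystine importer that feeds glutathione synthesis, was at 184, 188 and 164 CPM in NC, 154, 159 and 139 CPM in SM2 and 224, 204 and 206 CPM in SM4. ARSI, an arylsulfatase, had the widest range of this direction with 1.29, 1.31 and 1.45 CPM in NC, 0.369, 0.749 and 0.456 CPM in SM2 and 1.68, 1.85 and 2.46 CPM in SM4, on as few as 17 counts. These enzymes ranged from scarce to well expressed, and CYP24A1 differed more in SM4 than in SM2. ALPP, the placental alkaline phosphatase, was at 2.97, 2.87 and 3.61 CPM in NC, 2.54, 2.12 and 2.45 CPM in SM2 and 4.27, 3.67 and 4.69 CPM in SM4, and its near-identical paralogs may have taken part of its reads. CASD1, which acetylates sialic acid, was at 16.7, 17.1 and 17.2 CPM in NC, 14.1, 13.7 and 14.3 CPM in SM2 and 22.2, 19.8 and 20.7 CPM in SM4, with SGCE at a mean of 57.1 CPM on the other strand. CEMIP2, a cell surface protein linked to hyaluronan breakdown, was at 96.9, 94.1 and 93.2 CPM in NC, 82.6, 80.9 and 72.9 CPM in SM2 and 114, 115 and 117 CPM in SM4.

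SLC7A11 differed from the other NRF2 targets, the antioxidant genes with which it is usually listed. Of the 19 others, none rose in SM2 or SM4, while 11 fell in SM2 and 10 in SM4. GCLM, a subunit of the enzyme that makes the glutathione precursor, was at 85.2, 89.4 and 83.8 CPM in NC, 50.2, 46.1 and 43.6 CPM in SM2 and 54.1, 57.8 and 52.5 CPM in SM4. It fell by 0.89 in SM2 (SE 0.0596, adjusted p = 1.08e-09) and by 0.67 in SM4 (SE 0.0587, adjusted p = 3.94e-08) on edgeR's log2 scale. The median log2 ratio of the 19 was -0.21 in SM2 and -0.19 in SM4. SLC7A11 is also known as a target of ATF4, and of the 40 genes on the list for ATF4 and the unfolded protein response, 21 rose and none fell in SM2, and 20 rose and 5 fell in SM4.

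CST6, NIPAL4 and CGNL1, which act in epithelia, had the same order as OAS3. The list for epithelial adhesion and junctions held none of the 76 genes, and of its 33 genes 5 rose and 11 fell in SM2, and 8 rose and 4 fell in SM4. CST6, a cystatin that inhibits cysteine proteases of the skin, was at 95.8, 113 and 106 CPM in NC, 73.2, 78.7 and 89.9 CPM in SM2 and 126, 128 and 127 CPM in SM4. NIPAL4, a membrane protein of the epidermal lipid barrier, was at 2.99, 2.51 and 2.97 CPM in NC, 2.20, 1.95 and 1.88 CPM in SM2 and 3.82, 4.27 and 3.90 CPM in SM4. CGNL1, which links junctions to the cytoskeleton, was at 4.90, 5.87 and 4.72 CPM in NC, 4.67, 3.62 and 3.63 CPM in SM2 and 9.57, 7.24 and 8.49 CPM in SM4. CGNL1 and ARSI were the genes of this direction with at least 2-fold between SM2 and SM4, although 1 SM2 library of CGNL1 lay just under the lowest NC library. Of the 12 other genes of the keratinocyte-type list, 7 rose and none fell in SM2, and 9 rose and 1 fell in SM4. IVL (involucrin) was the member of that list with an order like NIPAL4, at 4.70 CPM in NC, 4.08 in SM2 and 7.69 in SM4, but its log2 ratio of -0.22 in SM2 did not pass the test (adjusted p = 0.207), while it rose in SM4 (log2 ratio 0.69, adjusted p = 9.58e-05).

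Signalling and transport genes of this direction were RAPGEF3, RAB15, RINL, FGD3 and STON2. RAPGEF3 (EPAC1), an exchange factor activated by cyclic AMP, was at 11.8, 14.3 and 13.4 CPM in NC, 10.1, 11.3 and 10.9 CPM in SM2 and 21.2, 19.1 and 19.5 CPM in SM4, and SLC48A1 overlaps it on the other strand at a mean of 35.4 CPM. RAB15, a small GTPase of endosomes, averaged 26.5 CPM in NC, 23 in SM2 and 35.9 in SM4. FGD3, an exchange factor for Cdc42, averaged 21.1, 18 and 24.3 CPM, RINL, an exchange factor for Rab proteins, 4.16, 3.46 and 5.35 CPM, and STON2, an endocytic adaptor, 6.14, 4.76 and 7.27 CPM. FAM110C, a centrosomal protein, was at 34.7, 32.7 and 33.7 CPM in NC, 23.2, 23.9 and 24.9 CPM in SM2 and 40.0, 37.9 and 41.5 CPM in SM4, so its difference was larger in SM2.

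BHLHE41, a repressor of the circadian clock, was at 37.8, 36.9 and 36.9 CPM in NC, 28.7, 29.4 and 28.3 CPM in SM2 and 46.9, 47.0 and 45.1 CPM in SM4. The non-coding gene ENSG00000256894 lies 118 bases from it on the same strand and had the same order, with means of 1.74, 1.16 and 2.05 CPM. This was the closest pair among the 76 genes, ahead of CXCL5 and PPBP. SSPN overlaps BHLHE41 and the non-coding gene on the other strand at a mean of 4.86 CPM. It fell in SM2 from 5.46 to 4.02 CPM (adjusted p = 0.0196) and was at 5.11 CPM in SM4 (adjusted p = 0.629). Reads of SSPN may therefore be part of the low counts of the non-coding gene. Of the 12 other genes of the circadian clock list, 3 rose and 2 fell in SM2, and 3 rose and 5 fell in SM4. GREB1L, a relative of an oestrogen-induced coactivator, was at 10.0, 9.85 and 10.5 CPM in NC, 8.15, 7.90 and 8.09 CPM in SM2 and 12.6, 13.1 and 12 CPM in SM4. ZNF431, a KRAB zinc finger protein, averaged 17.0, 14.7 and 19.9 CPM.

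The remaining genes of this direction were low or overlapped others. MLLT11 was at a mean of 1.26 ± 0.0132 CPM (SD, n = 3) in NC, 0.978, 0.936 and 1.08 CPM in SM2 and 1.89, 2.10 and 1.36 CPM in SM4, and it overlaps CDC42SE1 on the other strand at a mean of 65.2 CPM. FAM83A-AS1 averaged 6.63, 5.51 and 8.18 CPM, and FAM83A, which it overlaps on the other strand, fell in SM2 from 239 to 218 CPM (adjusted p = 0.0162) and rose in SM4 to 312 CPM (adjusted p = 1.33e-06). KRT17P4, a pseudogene of a keratin, was at 1.09, 1.09 and 1.30 CPM in NC, 0.609, 0.894 and 0.874 CPM in SM2 and 1.31, 1.65 and 1.73 CPM in SM4, where the lowest SM4 library lay beside the highest NC library. CCDC183-AS1 lies across RABL6, at a mean of 214 CPM, on the other strand, and ENSG00000261578 is a non-coding RNA. Reads from overlapping partners cannot be told apart where strand was not used in counting.

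**Figure D5:**
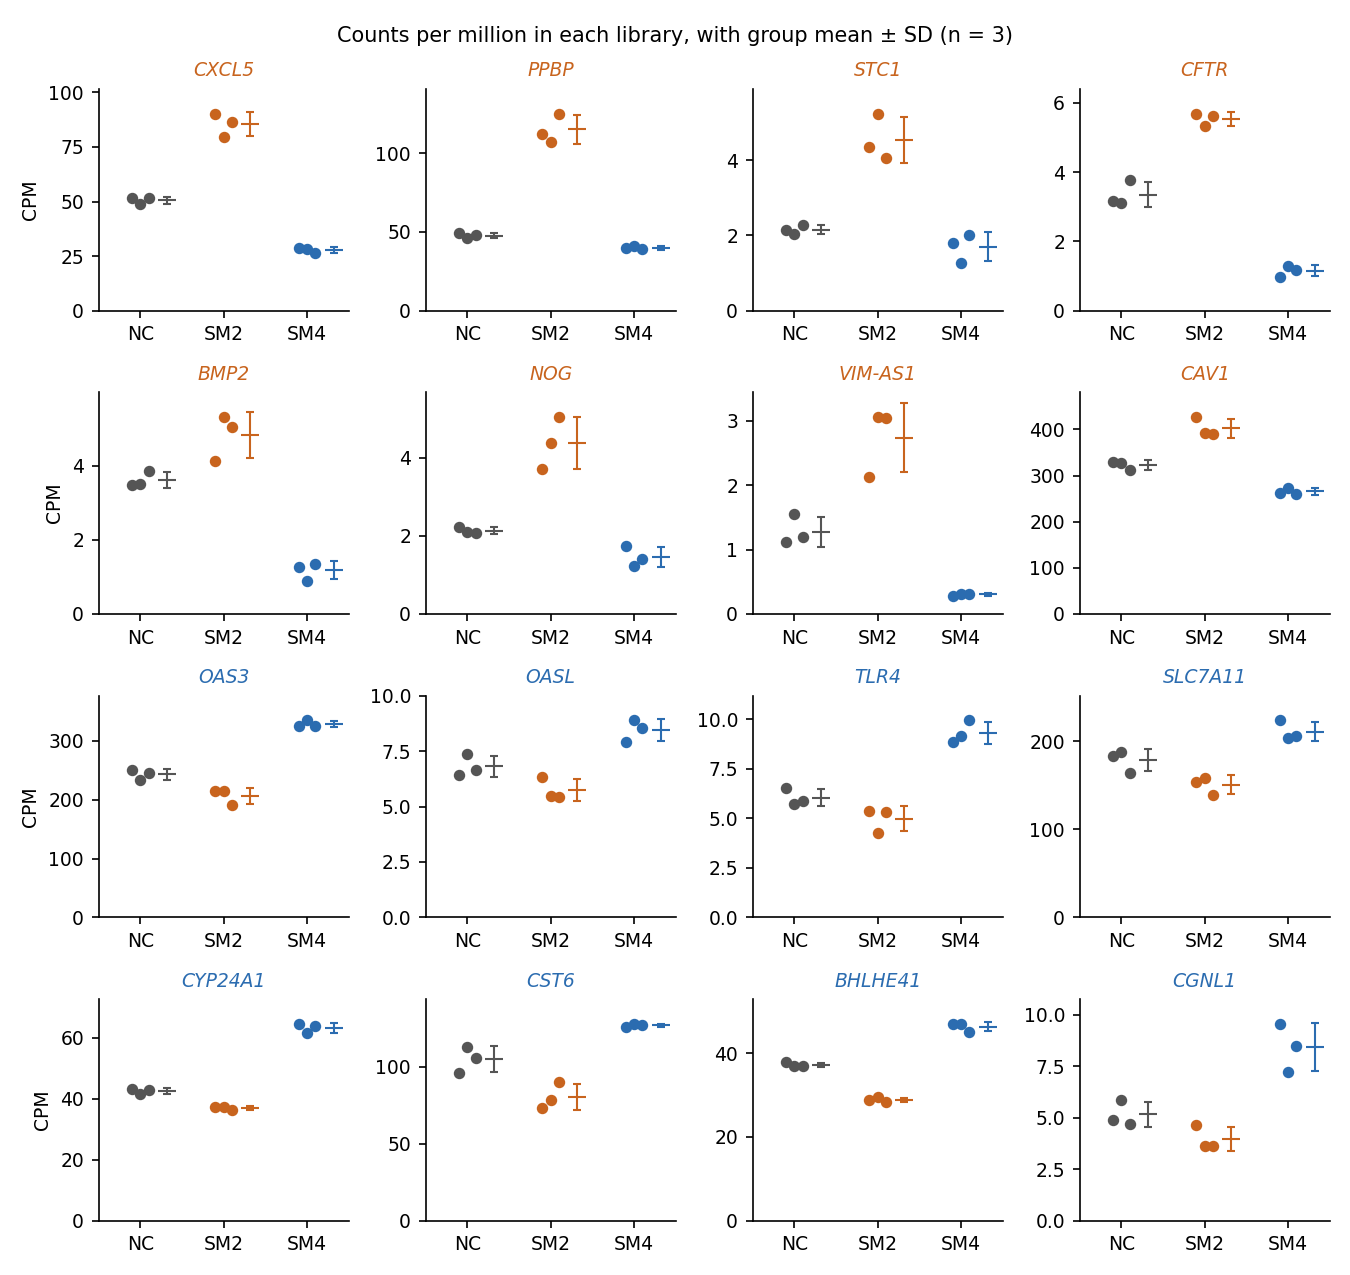
CPM in each library (points, y axes starting at 0) of 8 genes higher in SM2 and lower in SM4 (orange titles) and 8 genes lower in SM2 and higher in SM4 (blue titles), with the group mean and SD (n = 3) to the right of the points. In every panel the 3 NC libraries lie between the SM2 and SM4 libraries, with clear gaps on both sides for CFTR and CXCL5.

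The glucuronosyltransferase UGT1A10 came close to this pattern without meeting the rule. It was at 1.22, 0.982 and 0.974 CPM in NC, 0.543, 0.562 and 0.456 CPM in SM2 and 1.13, 2.04 and 2.09 CPM in SM4, and 1 SM4 library lay among the NC libraries. UGT1A10 fell in SM2 (log2 ratio -1.03, adjusted p = 0.0108) and rose in SM4 (log2 ratio 0.72, adjusted p = 0.0418), but the call in SM4 was lost under 5 of 15 alternatives. The genes of the UGT1A locus share their last exons, so its reads cannot be assigned with certainty.

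Sequence and annotation features of the 76 genes, which the rule did not use, were set beside those of all 14432 genes. Protein-coding genes made up 93.5% of the genes higher in SM2 and lower in SM4, 83.3% of the reverse order and 83.7% of all. The median GC content of the transcripts was 48.1%, 50.5% and 48.6%, and the median length 3097, 3590 and 2984 bases. GGACT, the sequence most often given for m6A sites, occurred at a median of 0.876 per kb, 1.27 per kb and 0.917 per kb, with quartiles of 0.542 and 1.63 for the genes higher in SM4 and 0.520 and 1.41 for all. Median levels, which the rule did use, were 9.89 CPM and 7.90 CPM, against 26.3 CPM for all genes. Of the other genes within 100 kb, 17.5% and 16.8% had the same order of group means as the chosen gene beside them, and 12.9% and 14.6% of all genes had those orders.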

How the data were processed

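The authors deposited raw counts per gene without normalization for 9 RNA-seq libraries of OVCAR5 cells. Per the paper's methods and the submitters' processing notes, reads were aligned to hg38 with hisat2 and counted with Subread (featureCounts), and fastp is also listed. Tool versions, the gene annotation and the strand setting are not given in the sources used here, and labels and methods disagree on the library kit and read layout. Groups and replicate numbers came from the library titles, and 0 sample columns were left unused.

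Gene symbols came from GENCODE release 44, which matched 60463 of 60649 identifiers, and unmatched identifiers held at most 0.0444% of the counts of a library. Levels are raw counts over the library total, in CPM, with n = 3 libraries per group, and counts without molecular identifiers give only a lower limit on the error. Genes that passed filterByExpr (19674) were tested in R 4.3.3 by edgeR 4.0.16 (quasi-likelihood F test), with all 9 libraries in one model of group alone and TMM factors of 0.989 to 1.01, and p-values were adjusted by Benjamini-Hochberg over these genes. The common biological coefficient of variation was 0.0587. "Rose" and "fell" mean an adjusted p below 0.05. All adjusted p-values are from edgeR unless another tool is named. DESeq2 1.42.0 was an alternative. The edgeR step and the rule were tested on simulated data. Same-numbered replicates did not deviate together (correlations from -0.053 to 0.0453), so the numbers were not treated as pairs.

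The members and lists were chosen with earlier results of these data known. Library values are given in each direction for the 12 genes with the largest smaller ratio, the 5 most abundant, and those on a list. Some genes are counted but not reported here by name. Named non-members are genes of the lists that hold a member, the chemokine family, VIM, UGT1A genes, METTL3, the genes beside the threshold and neighbours or overlapping genes. CEBPB was added after its values were seen, as were the C/EBP, sterol and interferon promoter motifs. Alternatives were other scalings, level and fold limits, edgeR calls in place of no overlap, protein-coding genes alone, replicate numbers, no filter, DESeq2 and leaving out each library.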

Additional observations from a re-analysis of the deposited data

How the results depend on the processing

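The counts of 46 genes higher in SM2 and lower in SM4 and of 30 genes in the reverse order depended mostly on the fold. With no fold asked they were 159 and 145, with a difference of at least 25% 20 and 6, and with at least 50% 3 (CXCL5, CFTR and VIM-AS1) and 0. A mean of at least 5 CPM left 27 and 22, and edgeR calls with opposite signs in place of no overlap gave 28 and 16, of which 27 and 15 were among the main genes. Other scalings gave 50 and 29 (TMM) or 48 and 27 (DESeq2 size factors), and 43 of the 46 and 26 of the 30 met the rule under all 3 scalings.

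With NC required between the others only within each replicate number, as a replicate block, the counts were 56 and 46. Added as a replicate block in edgeR, the numbers moved the called genes from 4389 to 4694 for SM2 over NC, from 4173 to 4484 for SM4 over NC and from 2518 to 2815 between SM4 and SM2. The numbers share only a label, so this is not a paired design.

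Leaving out 1 library at a time gave 48 to 56 genes in the first direction and 31 to 48 in the second. The most were found without SM4 replicate 2. With 1 library fewer, no overlap is easier to meet, so the counts can rise from the rule alone. Of the main genes, 31 of the 46 and 16 of the 30 met the rule each time. Without SM2 replicate 3 the counts were 51 and 33, with 43 and 26 of the main genes among them. The genes called in SM4 against SM2 numbered 1574 (without SM4 replicate 1) to 2838 (without SM2 replicate 3). Any further cause of these shifts was not tested.

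No log2 ratio of the 76 genes turned its direction under any alternative run. For these genes the rule fixed this nearly in advance, since their libraries did not overlap between groups, so nothing is read from it. Among the other named genes, none past the test with or without the alternative turned its direction. FAM111B lost its call in SM2 under 10 of the 15 alternatives, FAM83A under 3 and GALNT5 under 3. In SM4, GALNT5 and UGT1A10 each lost their call under 5 and USP18 under 3.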

Other observations

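A further 113 genes lay above NC in all SM2 libraries and below it in all SM4 libraries with less than the 15% difference on 1 or both sides, and 115 had the reverse order. They were chosen on the same values and are described without a test. Of the 113, 25 were on a gene list. They included SCD5, LPIN1, PNPLA3 and ACSL3, which act in fatty acid desaturation and lipid handling, with SCD5 at 13.4 CPM in NC, 20.5 in SM2 and 11.7 in SM4. ACSL5, on the same list, had the reverse order with 97.6, 90.8 and 114 CPM. HMGCS1, an early enzyme of cholesterol synthesis, was at 126, 175 and 117 CPM. CCL28, a chemokine of mucosal epithelia, was at 254 CPM in NC, 281 in SM2 and 114 in SM4, so that nearly all of its difference was in SM4.

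Of the 115 genes of the reverse order, 11 were on a list. PMVK, the phosphomevalonate kinase, was at 30.4 CPM in NC, 23.8 in SM2 and 34.8 in SM4, opposite to HMGCS1 in the same pathway. The chloride channel ANO1 was at 103, 96.4 and 160 CPM, opposite to CFTR. BHLHE40, a close relative of BHLHE41 and likewise a repressor of the clock, was at 54.7 CPM in NC, 65.3 in SM2 and 49.9 in SM4, which is the reverse of BHLHE41. These examples were picked after their values were seen.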
